A study of Mus musculus with 15 samples.

Results

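Levels of 5 genes are described: Cdh1, Dab2, Mctp2, Kcnma1 and Prss34. They are 5 of the 19938 genes read on 15 Affymetrix arrays, each made from a sorted population of mouse bone marrow. They were picked for their levels in Zbtb46-GFP+ cells that lacked Id2, so those levels are given as a description, without a test. Each gene was read from the probe set annotated to its symbol alone, or from the one with the highest mean where there were several. The 5 symbols had 7 such probe sets, and the second ones of Dab2 and Kcnma1 are described beside the first.

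The arrays covered 2 sorted stages in 3 genotypes, and every group carried the Zbtb46-GFP reporter. The later stage, labelled Zbtb46-GFP+ and intermediate for c-Kit, had 3 arrays for each of Id2 KO, Batf3 KO and WT. The earlier stage, common dendritic cell progenitors (CDPs), had 2 arrays for each genotype. Id2 KO and WT cells came from chimeric mice, whereas the Batf3 KO mice are not labelled chimeric, so the kind of host cannot be told apart from the Batf3 genotype. The labels give no ages, no number of mice per array and no strain, so p-values measure only the spread between these arrays.

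Classical dendritic cells arise from CDPs, and Zbtb46 marks the progenitors committed to that lineage. Id2 is a helix-loop-helix protein without a DNA-binding domain. It binds the E proteins, among them Tcf4, and keeps them from their E-box sites, and E protein activity favours plasmacytoid dendritic cells (pDCs). The 5 genes encode proteins of unrelated kinds. Cdh1 is E-cadherin, an adhesion receptor that binds its like on the next cell and is carried by Langerhans cells as well as epithelia. Dab2 is an adaptor that links cargo receptors to clathrin, and is expressed in some macrophages. Mctp2 is a membrane protein of the endoplasmic reticulum with several C2 domains, which bind calcium. Kcnma1 is the pore subunit of the BK potassium channel, and Prss34 is a tryptase-like serine protease of mouse basophils and mast cells.

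The 3 replicate 1 arrays of Zbtb46-GFP+ cells had median signals between 23.8 and 24.1, unlike the remaining 12 (100.8 to 112.1), and 54.0% of probe sets had one and the same value on those 3 arrays. Group values below therefore come from the 12 arrays on one scale, 2 per group, and the 3 are given apart. On the 12 arrays Id2 itself measured 8.39 and 8.82 log2 units in Id2 KO Zbtb46-GFP+ cells, against 11.999 and 11.47 in WT. Both Id2 KO arrays were below both WT arrays, although the Id2 signal remained above the 7.08 and 5.96 of Id2 KO CDPs. Batf3 measured 6.89 and 7.32 in Batf3 KO Zbtb46-GFP+ cells, against 9.99 and 9.85 in WT. The antigen-presentation genes Cd74 and H2-Aa were at 12.61 or above in all 6 Zbtb46-GFP+ arrays and at 7.54 or below in all CDP arrays. The Zbtb46 transcript measured 5.95 and 6.08 in Id2 KO and 6.01 and 5.996 in Batf3 KO Zbtb46-GFP+ cells, against 7.18 and 6.99 in WT, and 5.77 and 5.87 in Id2 KO, 5.68 and 6.02 in Batf3 KO, and 6.07 and 5.94 in WT CDPs. The Zbtb46-GFP+ arrays of both knockouts were below those of WT. They were above the CDP arrays of the same genotype in Id2 KO and overlapped with them in Batf3 KO. Xist was at 5.06 to 5.71 on the 8 knockout arrays and at 11.93 to 12.42 on the 4 WT arrays, so sex pattern and knockout cannot be told apart in comparisons with WT. Id2 KO and Batf3 KO arrays had the same sex pattern.

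Promoter sequences, 250 bases before to 50 after an annotated start, are shown for Mctp2, Dab2 and Prss34, because these genes are read where Id2, a regulator of E-box binding factors, is missing. They come from RefSeq (build GRCm38.p6), whose table held 4 of the 5 genes, Cdh1 not among them. Capitals mark the E-box forms CAGCTG and CAGGTG (or CACCTG, the same motif on the other strand). The Mctp2 sequence is chr7:72306546-72306845 on the minus strand. The Dab2 gene has 2 starts in the table, at chr15:6299539-6299838 and chr15:6386498-6386797, both on the plus strand. The Prss34 sequence is chr17:25298144-25298443 on the plus strand.
Mctp2: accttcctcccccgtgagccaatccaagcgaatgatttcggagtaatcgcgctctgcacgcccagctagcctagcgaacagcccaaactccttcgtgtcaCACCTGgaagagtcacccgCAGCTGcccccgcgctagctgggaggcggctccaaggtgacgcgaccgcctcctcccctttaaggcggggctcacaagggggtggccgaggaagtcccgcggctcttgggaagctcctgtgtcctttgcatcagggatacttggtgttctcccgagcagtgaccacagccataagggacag
Dab2, first start: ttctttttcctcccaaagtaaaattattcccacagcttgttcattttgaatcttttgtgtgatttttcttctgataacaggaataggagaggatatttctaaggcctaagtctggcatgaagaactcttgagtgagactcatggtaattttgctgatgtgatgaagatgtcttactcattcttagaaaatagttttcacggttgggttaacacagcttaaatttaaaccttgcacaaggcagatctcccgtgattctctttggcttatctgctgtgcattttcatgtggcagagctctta
Dab2, second start: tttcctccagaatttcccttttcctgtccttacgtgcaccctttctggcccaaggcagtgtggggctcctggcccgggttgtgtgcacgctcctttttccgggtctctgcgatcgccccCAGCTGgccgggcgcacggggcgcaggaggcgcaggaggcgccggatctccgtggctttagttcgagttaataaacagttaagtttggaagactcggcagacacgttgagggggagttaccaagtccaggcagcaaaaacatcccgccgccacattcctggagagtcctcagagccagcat
Prss34: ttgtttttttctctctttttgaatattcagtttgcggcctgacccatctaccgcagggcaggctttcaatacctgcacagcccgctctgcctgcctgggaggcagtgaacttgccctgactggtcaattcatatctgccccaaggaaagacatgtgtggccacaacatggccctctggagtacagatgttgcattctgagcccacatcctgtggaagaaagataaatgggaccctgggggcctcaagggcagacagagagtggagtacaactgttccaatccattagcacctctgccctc

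The Mctp2 window held one CACCTG, whose first base lay 150 bases before the start, and one CAGCTG at 131 bases before it. The window of the second Dab2 start held one CAGCTG, also at 131 bases before its start. The windows of the first Dab2 start, of Prss34 and of Kcnma1 held neither form. Among all 32851 promoters in the table, 16.3% held CAGCTG, 20.2% held CAGGTG or CACCTG, and 3.57% held both, as Mctp2 did. The general form CANNTG, which overlaps both, was in 72.3% of promoters. It occurred 3 times in the Prss34 window, 2 times in that of Mctp2, once in each of the Dab2 windows and not in that of Kcnma1. A match describes these letters only.

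In Zbtb46-GFP+ cells, Cdh1 was high in Id2 KO and at one low level everywhere else. It measured 9.62 and 9.17 log2 units in Id2 KO, 6.56 and 6.84 in Batf3 KO, and 6.68 and 6.89 in WT Zbtb46-GFP+ cells. In CDPs it measured 6.95 and 6.58 in Id2 KO, 6.26 and 6.45 in Batf3 KO, and 6.36 and 6.46 in WT. The 2 Id2 KO Zbtb46-GFP+ arrays stood apart from the other 10 of the 12 arrays, all of which lay between 6.26 and 6.95. The Id2 KO mean was 9.39 ± 0.31 (SD, n = 2), against 6.78 ± 0.15 in WT, a difference of 2.61 log2 units or 6.11-fold. Against Batf3 KO (6.70 ± 0.19) the difference was 2.70. These differences ranked 11th and 4th of all genes, and are a description, since the gene was chosen on them. On all 15 arrays, with or without a term for the 3 kept apart, the differences were 1.85 from WT and 1.91 from Batf3 KO. In cells measured in bulk, more cells that carry a transcript and more of it per cell cannot be told apart.

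Dab2 was high in Id2 KO and also in 1 of the 2 WT Zbtb46-GFP+ arrays. It measured 9.64 and 9.02 in Id2 KO, 7.43 and 6.56 in Batf3 KO, and 7.67 and 9.02 in WT Zbtb46-GFP+ cells. WT replicate 3 and the lower Id2 KO array had the same signal to 2 decimals, and both were above the 2 Batf3 KO arrays. In CDPs it measured 6.58 and 6.51 in Id2 KO, 6.19 and 5.94 in Batf3 KO, and 6.36 and 6.35 in WT. Those 6 arrays were below all but 1 of the Zbtb46-GFP+ arrays, the lower one of Batf3 KO. The mean in Zbtb46-GFP+ cells was 9.33 ± 0.43 in Id2 KO, 6.995 ± 0.62 in Batf3 KO and 8.35 ± 0.95 in WT. The Id2 KO minus WT difference was 0.98, with 0.31 when WT replicate 2 was left out and 1.66 when WT replicate 3 was. The difference from Batf3 KO was 2.33 and lay between 1.90 and 2.77 with each array left out in turn. The second Dab2 probe set (10422744), annotated to one transcript outside RefSeq, stayed between 4.57 and 5.17 on the 12 arrays and showed none of this pattern.

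Mctp2 ran the other way over the stage step in Id2 KO than in the other genotypes. It measured 9.44 and 9.11 in Id2 KO, 7.70 and 6.18 in Batf3 KO, and 5.88 and 6.64 in WT Zbtb46-GFP+ cells. In CDPs it measured 7.69 and 7.64 in Id2 KO, 8.49 and 7.83 in Batf3 KO, and 8.20 and 6.97 in WT. The Zbtb46-GFP+ arrays were thus above both CDP arrays in Id2 KO and below them in Batf3 KO and WT. The order in Id2 KO held in 20.3% of all genes, and the share was not counted for the other genotypes. The Id2 KO step is a description, since the gene was picked on that level, and it was 0.17 on all 15 arrays. The falls did not pass the limma test described below (adjusted p = 0.123 in WT and 0.200 in Batf3 KO). The Id2 KO mean in Zbtb46-GFP+ cells was 9.27 ± 0.24, against 6.26 ± 0.54 in WT, a difference of 3.01 log2 units or 8.07-fold. Against Batf3 KO (6.94 ± 1.07) the difference was 2.33.

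**Figure D1:**
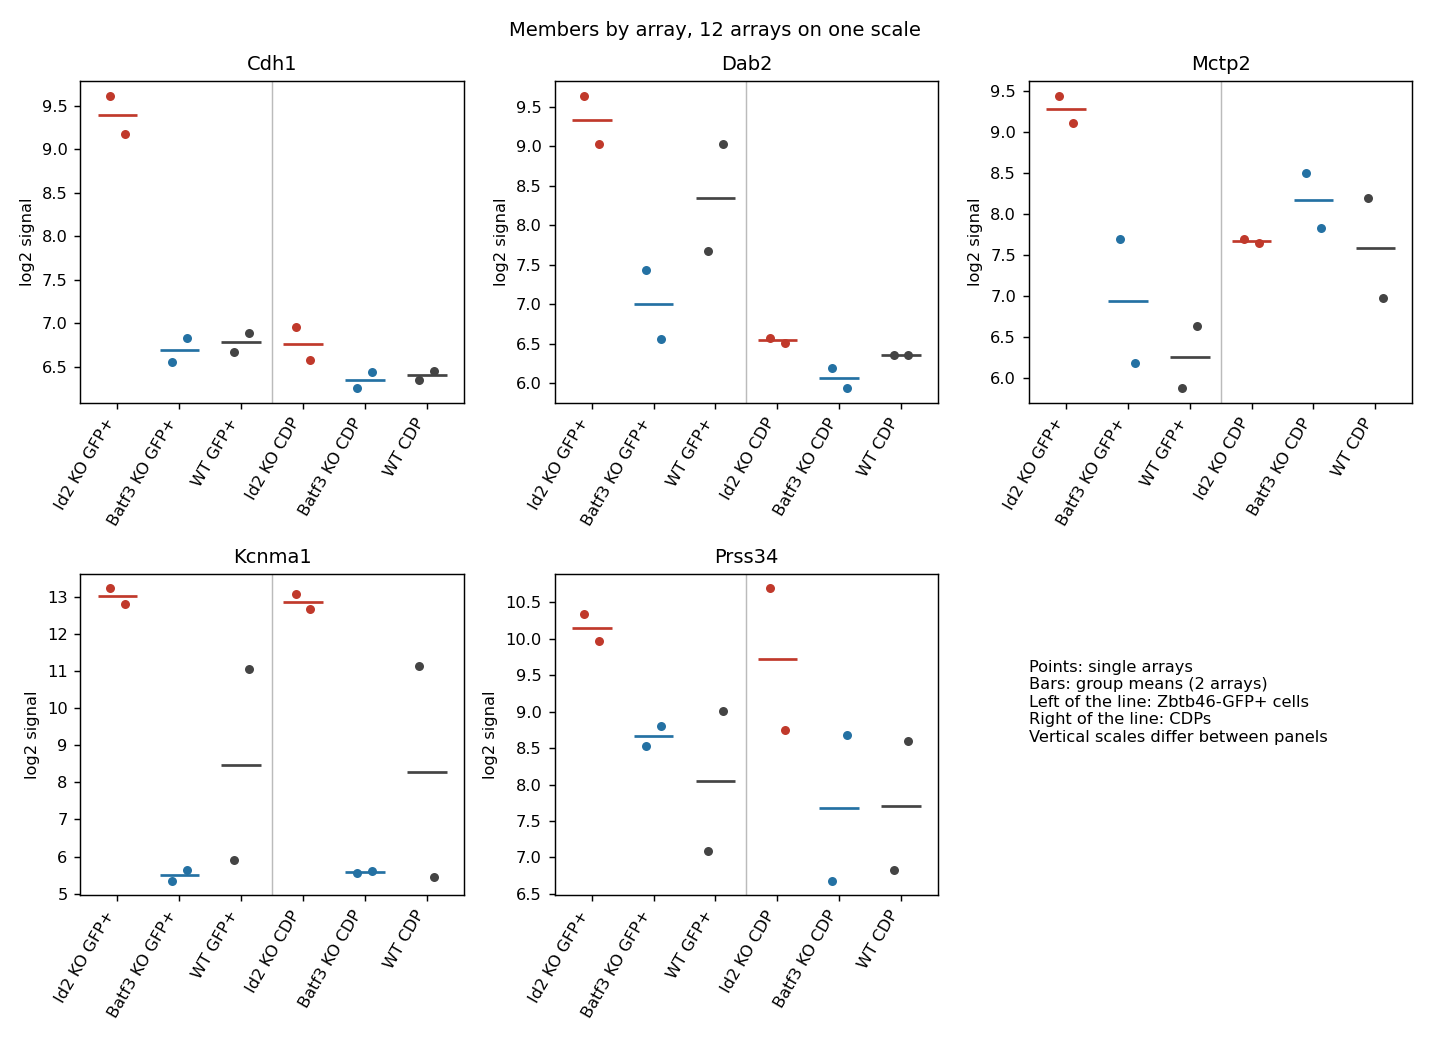
Log2 signal of the 5 genes on the 12 arrays of one scale, in Id2 KO, Batf3 KO and WT Zbtb46-GFP+ cells (left of the line) and CDPs (right of it); points are arrays and bars are means of 2. Cdh1 is high only in the 2 Id2 KO Zbtb46-GFP+ arrays (9.17 and 9.62), Kcnma1 lies between 12.67 and 13.24 in all 4 Id2 KO arrays, and the WT arrays of Kcnma1 fall into high and low ones.

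The signal filed under Kcnma1 was high in every Id2 KO array at both stages. None of the transcripts listed for its probe set is a RefSeq transcript of Kcnma1, however. Probe set 10582545 measured 13.24 and 12.82 in Id2 KO, 5.34 and 5.64 in Batf3 KO, and 5.92 and 11.05 in WT Zbtb46-GFP+ cells. In CDPs it measured 13.10 and 12.67 in Id2 KO, 5.57 and 5.601 in Batf3 KO, and 11.15 and 5.44 in WT. No array lay between 5.92 and 11.05: the 4 Id2 KO arrays and 1 WT array of each stage were high, and the 4 Batf3 KO arrays and the other WT array of each stage were low. The gap between the 2 WT arrays was 5.71 in CDPs and 5.14 in Zbtb46-GFP+ cells, the widest of all 19938 genes in both groups, where the median gaps were 0.22 and 0.21. The Id2 KO minus WT difference in Zbtb46-GFP+ cells was 4.55, but 1.98 without WT replicate 2 and 7.11 without WT replicate 3. Against Batf3 KO, where both arrays were low, it was 7.54.

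The annotation lists 4 transcript accessions for probe set 10582545, of which 0 are among the RefSeq transcripts of Kcnma1. The other probe set annotated to Kcnma1, 10418053, lists 20, of which 17 are. Probe set numbers on this array follow the genome: 92.3% of the 21695 single-symbol probe sets with a known chromosome had at least 9 of their 10 nearest-numbered probe sets on it. Kcnma1 is on chromosome 14, and all 10 neighbours by number of 10418053 are on chromosome 14 too. All 10 neighbours of 10582545 are on chromosome 8, a complete mismatch shared with 2.72% of probe sets. The genes on both sides by number, Fanca and Dbndd1, showed no such pattern, with 8.75 to 9.31 and 6.30 to 6.77 on the 12 arrays. Probe set 10418053 itself stayed between 5.08 and 5.51 on the 12 arrays, with 5.21 and 5.31 in Id2 KO, 5.34 and 5.51 in Batf3 KO, and 5.41 and 5.32 in WT Zbtb46-GFP+ cells. Between groups 10418053 differed by -0.17 to 0.16 in all 9 comparisons. Values of 10582545 are given here under the annotation's name without being taken as a level of the BK channel gene.

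**Figure D2:**
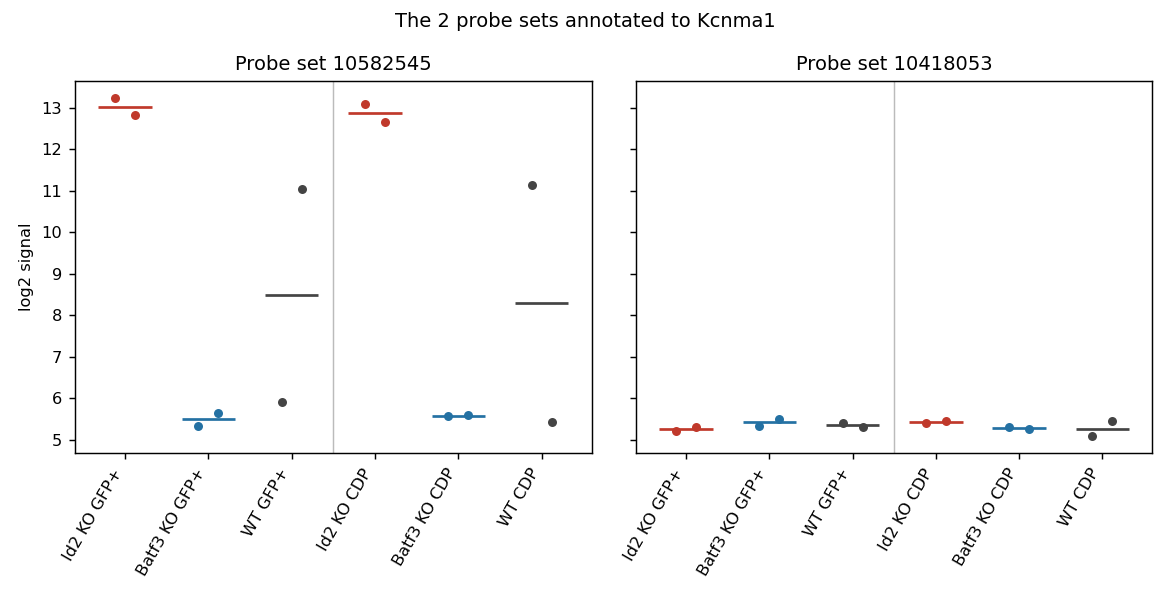
Log2 signal of both probe sets annotated to Kcnma1, on the same vertical scale, in the 6 groups of the 12 arrays (points are arrays, bars are means). Probe set 10582545 is at 12.67 to 13.24 in Id2 KO, at 5.34 to 5.64 in Batf3 KO and split in WT, while 10418053, which lists the RefSeq transcripts of Kcnma1, stays between 5.08 and 5.51.

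Prss34 was highest in Id2 KO but varied widely between arrays of one group. It measured 10.34 and 9.97 in Id2 KO, 8.54 and 8.80 in Batf3 KO, and 7.09 and 9.004 in WT Zbtb46-GFP+ cells. In CDPs it measured 10.69 and 8.75 in Id2 KO, 6.68 and 8.68 in Batf3 KO, and 6.83 and 8.59 in WT. The Id2 KO Zbtb46-GFP+ arrays were above the others of that stage, whereas the lower Id2 KO CDP array was close to the higher CDP array of Batf3 KO and of WT. The gap between replicates was 2.00 in Batf3 KO CDPs, the widest of all genes there, and 1.94, 1.92 and 1.76 in Id2 KO CDPs, WT Zbtb46-GFP+ cells and WT CDPs. The Id2 KO minus WT difference in Zbtb46-GFP+ cells was 2.11, with a range of 1.15 to 3.07 as single arrays were left out. Against Batf3 KO it was 1.48.

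All 5 genes had both Id2 KO arrays above both WT arrays in Zbtb46-GFP+ cells, and above both Batf3 KO arrays. Of all genes, 18.8% had both Id2 KO arrays above both WT arrays and 15.6% had them above both Batf3 KO arrays. The choice of genes fixed this count, so nothing is read from it.

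The replicate 1 arrays, which the group means did not use, gave 1 further Id2 KO, Batf3 KO and WT array of Zbtb46-GFP+ cells. The signal of probe set 10582545 (Kcnma1) was 8.94 in Id2 KO, 3.65 in Batf3 KO and 3.31 in WT, and its Id2 KO minus WT difference of 5.63 ranked first of all genes. Mctp2 measured 4.97 in Id2 KO, 2.71 in Batf3 KO and 2.70 in WT, a difference from WT of 2.28 that ranked 8th. Dab2 measured 6.59 in Id2 KO, 5.16 in Batf3 KO and 5.45 in WT, a difference from WT of 1.14 that ranked 88th. These 3 genes were higher in Id2 KO than in both other arrays, as on the 12 arrays. Cdh1 was 4.64 in Id2 KO and tied at 4.32 in Batf3 KO and WT, a difference of 0.33, and Prss34 was tied at 6.35 in all 3. Of all genes, 62.5% were tied between Id2 KO and WT there and 20.4% were higher in Id2 KO. In Xist the Batf3 KO array of this set (11.02) was like WT (10.53), with Id2 KO at 3.66. The genes were picked for their levels in Id2 KO Zbtb46-GFP+ cells, and this Id2 KO array is of that group. Its values and ranks are thus a description and not an independent check. There is 1 array per genotype, so no test was made.

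**Figure D3:**
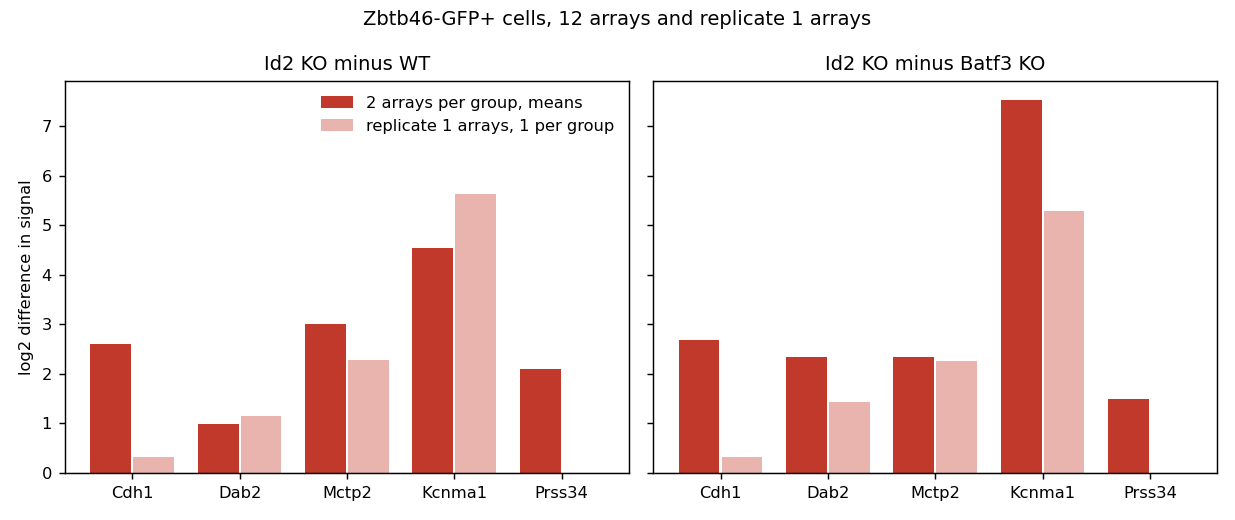
Log2 difference of Id2 KO from WT (left) and from Batf3 KO (right) in Zbtb46-GFP+ cells, from the means of 2 arrays per group (dark bars) and from the replicate 1 arrays, 1 per group (light bars). In the replicate 1 arrays Kcnma1, Mctp2 and Dab2 differ from WT by 5.63, 2.28 and 1.14, Cdh1 by 0.33 and Prss34 by 0.

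In the comparisons without Id2 KO Zbtb46-GFP+ cells, 1 gene passed the test in 1 comparison: Dab2 rose with stage in WT. These comparisons were tested with limma across all genes, with Benjamini-Hochberg adjustment and an adjusted p under 0.05, and some share the WT arrays on which the genes were picked. Dab2 was 8.35 in WT Zbtb46-GFP+ cells, against 6.35 in WT CDPs (log2 difference 1.99, SE 0.39, adjusted p = 0.0068). It was the only one of the 5 genes called in the WT step, where 11.1% of all genes were called. The call held with each array left out in turn (adjusted p up to 0.0444) but not in the fit on all 15 arrays (difference 1.03, adjusted p = 0.767). With Batf3 missing, the Dab2 difference over the step was 0.93 (adjusted p = 0.225). The difference of the 2 steps was -1.06 (SE 0.55, adjusted p = 1.00), so a smaller step in Batf3 KO was not shown.

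In that fit the other genes did not pass in the step of either genotype. Mctp2 differed by -1.33 in the WT step (SE 0.49, adjusted p = 0.123) and by -1.22 in the Batf3 KO step (adjusted p = 0.200), with both later arrays below both CDP arrays each time. Each of these Mctp2 steps passed when 1 array was left out, WT CDP replicate 2 (-1.94, adjusted p = 0.0497) and Batf3 KO Zbtb46-GFP+ replicate 2 (-1.98, adjusted p = 0.0439). Both also passed with a block for the array set with the higher 75th percentile, a setting added after the data were seen (adjusted p = 0.0040 in WT and 0.0084 in Batf3 KO). With the same block Dab2 passed in the Batf3 KO step (0.93, adjusted p = 0.0294). Cdh1 differed by 0.38 and 0.35, again with no overlap between the arrays (adjusted p = 0.271 in WT and 0.397 in Batf3 KO). The share of all genes without overlap was not counted for the WT and Batf3 KO steps, so nothing is read from the lack of it. Kcnma1 and Prss34 differed by 0.19 and 0.33 in WT, less than the spread between their replicates. In the Batf3 KO step 0 of the 5 genes were called by limma, where 7.18% of all genes were, with 2 of the 5, Dab2 and Mctp2, at an unadjusted p under 0.05.

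For loss of Batf3, the 12-array fit without a block called none of the 5 genes. In Zbtb46-GFP+ cells 0 of 5 were called by limma (0.336% of all genes), with 1 at an unadjusted p under 0.05. That gene, Dab2, was 6.995 in Batf3 KO, against 8.35 in WT (log2 difference -1.35, SE 0.39, adjusted p = 0.435). It passed with the array set block (-1.35, adjusted p = 0.0307) and without WT replicate 2 (-2.02, adjusted p = 0.0273). Cdh1 differed by -0.08 with a 95% confidence interval of -0.49 to 0.33. Mctp2 differed by 0.68, Prss34 by 0.62 and Kcnma1 by -2.99, each with an interval that included 0. In CDPs 0 of 5 were called (0.0502% of all genes), with 0 at an unadjusted p under 0.05, and in the interaction of Batf3 KO with stage 0 of 5 (0.0953%), also with 0.

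In CDPs, none of the 5 passed the test for loss of Id2. Probe set 10582545 was high on both Id2 KO CDP arrays. Prss34 was high on 1 of them (10.69), while the other (8.75) lay close to the higher array of Batf3 KO (8.68) and of WT (8.59). Prss34 averaged 9.72 ± 1.37 in Id2 KO CDPs and 7.71 ± 1.25 in WT CDPs (log2 difference 2.01, SE 0.83, limma adjusted p = 1.00, 95% confidence interval 0.18 to 3.84). Probe set 10582545 averaged 12.88 ± 0.30 in Id2 KO CDPs and 8.29 ± 4.04 in WT CDPs (log2 difference 4.59, SE 1.66, adjusted p = 1.00), an interval of 0.94 to 8.24. Both Id2 KO arrays were above both WT arrays in each, and in Cdh1 and Dab2 too. The share of all genes with this order was not counted in CDPs, so nothing is read from it. Prss34 and probe set 10582545 were the genes at an unadjusted p under 0.05. By limma 0 of 5 were called, against 0.0251% of all genes. For the 3 others the intervals included 0: the difference was 0.36 for Cdh1 (-0.05 to 0.77), 0.19 for Dab2 (-0.67 to 1.05) and 0.08 for Mctp2 (-0.99 to 1.16).

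Over the stage step in Id2 KO, where 6.82% of all genes were called, Dab2, Cdh1 and Mctp2 differed by 2.79, 2.63 and 1.61 log2 units, with both Zbtb46-GFP+ arrays above both CDP arrays, as in 20.3% of all genes. Kcnma1 and Prss34 differed by 0.15 and 0.43, with overlapping arrays. These steps are a description, since the genes were picked for their levels in Id2 KO Zbtb46-GFP+ cells. They depended on how the replicate 1 arrays were used, which are all of the later stage and had lower median signals. On all 15 arrays the same steps were 1.87 for Dab2, 1.04 for Cdh1, 0.17 for Mctp2, -1.22 for Kcnma1 and -0.84 for Prss34. With the 3 arrays added and given a term of their own, the Cdh1 step was 2.11.

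The partners and relatives of the 5 proteins were set beside them from lists of pathway genes and tested in Id2 KO against WT Zbtb46-GFP+ cells, where limma called 1.81% of all genes and the median of all genes was -0.02. Of 16 cadherins, catenins and nectins, the junction proteins that work with E-cadherin, 0 passed (median 0.01), with 3 at an unadjusted p under 0.05. Against Batf3 KO, where limma called 0.592% of all genes, 0 of the 16 passed and again 3 had an unadjusted p under 0.05. Of 10 receptors and repressors of E-cadherin 2 were higher and 0 lower (median 0.05). These were the repressor gene Zeb2 (9.57 in Id2 KO, 8.24 in WT, log2 difference 1.32, adjusted p = 0.0443) and the E protein gene Tcf4 (11.62 in Id2 KO, 10.08 in WT, log2 difference 1.54, adjusted p = 0.0116). Neither was called when WT replicate 2 or either of the Id2 KO arrays was left out. Of 25 measured clathrin adaptors and Dab2 partners 0 passed (median 0.03), with 2 at an unadjusted p under 0.05. Of 23 C2-domain calcium sensors 0 were higher and 1 was lower (median -0.04): Mctp1, the closest relative of Mctp2, was 8.18 in Id2 KO, against 9.79 in WT (log2 difference -1.61, SE 0.17, adjusted p = 6.62e-04). Mctp1 was lower than in Batf3 KO too (-1.07, adjusted p = 0.0207), though not with any 1 array of those 2 groups left out. Of 23 potassium channel and BK subunit genes 0 passed (median -0.12), with 3 at an unadjusted p under 0.05. Of 12 serine proteases of the tryptase cluster, which hold the nearest relatives of Prss34, 0 passed (median -0.07), with 0 at an unadjusted p under 0.05.

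Markers of other cells were read the same way. Prss34 is a basophil and mast cell protease, and of 23 measured genes of that list 2 were higher and 0 lower (median 0.01). Mcpt8, the basophil-specific granule protease of the mouse, measured 10.12 and 9.60 in Id2 KO, 7.47 and 8.03 in Batf3 KO, and 6.01 and 7.95 in WT Zbtb46-GFP+ cells (log2 difference from WT 2.88, SE 0.54, adjusted p = 0.0216). Csf2rb2, a cytokine receptor gene that other myeloid cells also express, differed by 1.51 (adjusted p = 0.0156). Neither passed against Batf3 KO (2.11 for Mcpt8, adjusted p = 0.198). With WT replicate 2 or either of the Id2 KO arrays left out the list had 0 higher. Other defining markers did not pass: Cpa3, a granule carboxypeptidase, differed by 0.94 (adjusted p = 0.409), the IgE receptor genes Fcer1a and Ms4a2 by 0.54 and 0.23, Hdc by 0.49 and Gata2 by 0.14. The mast cell tryptase genes Tpsb2 and Tpsab1 differed by -0.03 and -0.07. The summed signal of the 23 genes was 4895 and 4057 in Id2 KO, 2923 and 2828 in Batf3 KO, and 1920 and 2492 in WT Zbtb46-GFP+ cells. In CDPs it was 4081 and 3131 in Id2 KO, 2821 and 3077 in Batf3 KO, and 2780 and 2641 in WT. The sum was thus highest in Id2 KO at both stages, as the mean of Prss34 was. In CDPs the lower Id2 KO sum (3131) was close to the higher one of Batf3 KO (3077). The sum adds linear signals, so a bright gene such as Mcpt8 can set the order. In CDPs Mcpt8 measured 10.59 and 9.41 in Id2 KO, 8.32 and 8.95 in Batf3 KO, and 8.69 and 8.925 in WT. Of the 23 genes limma called 0 in Id2 KO minus WT CDPs, with 2 at an unadjusted p under 0.05. The part of these genes in the Prss34 level was not tested. An array gives every probe set a signal, so no marker is at 0.

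Of the 17 lists, that of pDC markers had the most members higher, 12 of 22, with 0 lower (median 1.24); it holds Tcf4 as well. Ly6d, a surface protein of lymphoid progenitors and of pDC precursors, was 11.02 in Id2 KO, against 6.99 in WT (log2 difference 4.03, SE 0.40, adjusted p = 3.85e-04). Siglech, a pDC surface lectin, differed by 3.06 (adjusted p = 0.0064), Tex2 by 1.83 and Tcf4 by 1.54. Without Id2 KO replicate 2 the list had 2 higher, without Id2 KO replicate 3 it had 4, and without WT replicate 2 it had 6. It had 8 when the replicate 1 arrays were added with a term of their own. Against Batf3 KO 4 of 22 were higher (0 without Id2 KO replicate 2, and 1 without Id2 KO or Batf3 KO replicate 3). The summed pDC signal was 35758 and 33006 in Id2 KO, 25055 and 19291 in Batf3 KO, and 14527 and 19409 in WT Zbtb46-GFP+ cells, and its part in the levels of the 5 genes was not tested.

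Neutrophil genes had 4 of 17 higher and 0 lower (median 1.33): Elane (2.32), Prtn3 (1.90) and Ctsg (1.37), all granule proteases, and the regulator Cebpe (1.10). Their summed signal was 49623 and 51209 in Id2 KO, 36181 and 26179 in Batf3 KO, and 19476 and 21179 in WT Zbtb46-GFP+ cells, and their part in the levels of the 5 genes was not tested. With either Id2 KO array left out 2 of the 17 were called. Against Batf3 KO, where 0.592% of all genes were called, limma called 0 of the 17 (median 0.66), with 4 at an unadjusted p under 0.05, and Batf3 KO minus WT gave 2 higher and 0 lower (median 0.48). The cDC1 list had 0 of 18 higher and 15 lower (median -2.49), led by Gpr141b (-4.55), Tlr3 (-3.78), Gcsam (-3.37) and Snx22 (-3.27); it holds Id2 itself. It had 1 higher and 4 lower against Batf3 KO (median -0.03), and 0 higher and 11 lower in Batf3 KO minus WT (median -1.67). The cDC2 list (median 0.64) had 2 of 15 higher, Cd209d (1.82) and Cx3cr1 (0.88). It had 0 called by limma against Batf3 KO (median 0.02), with 2 at an unadjusted p under 0.05, and 1 higher in Batf3 KO minus WT (median 0.65). These 3 comparisons share arrays with one another. Monocyte and macrophage genes (median -0.09) had 2 of 16 higher, F13a1 (1.86) and Csf1r (1.15), and 1 lower, Ccr2 (-0.87). Lymphoid and B cell genes (median 0.06) had 1 of 15 higher, Blnk (1.98), and T, NK and innate lymphoid genes (median -0.11) had 2 of 15, Nkg7 (1.42) and Thy1 (0.76). Stromal, endothelial and epithelial genes (median -0.06) had 1 of 17 higher, Pecam1 (1.40). By limma 0 of 7 eosinophil genes and 0 of 15 megakaryocyte and erythroid genes were called, with 0 and 3 at an unadjusted p under 0.05. Single arrays decided several of these calls: without Id2 KO replicate 2 the cDC2, monocyte, lymphoid and T or NK lists had 0, 1, 0 and 0 higher, and without WT replicate 3 the cDC2 list had 4.

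**Figure D4:**
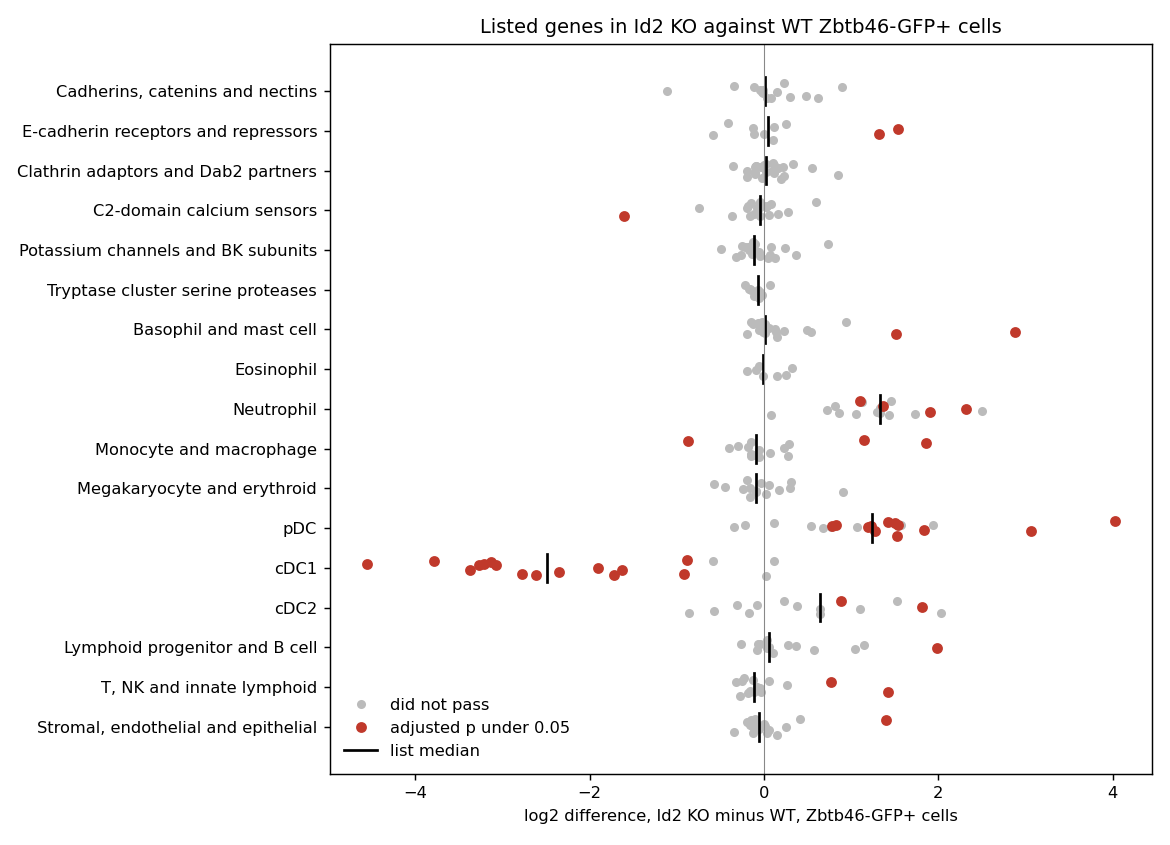
Log2 difference of Id2 KO from WT Zbtb46-GFP+ cells for the genes of 17 lists; each point is a gene, red where limma's adjusted p was under 0.05, and black bars are list medians. The lists of partners and relatives of the 5 genes centre near 0, with Mctp1 called lower (-1.61) and Zeb2 and Tcf4 called higher. The pDC (median 1.24) and neutrophil genes (1.33) lie to the right and cDC1 genes (-2.49) to the left.

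The genes whose pattern over the 12 arrays was most like each of the 5 differed from one to the next. Likeness is Pearson's r over 12 arrays among the 1566 genes whose group means spanned at least 1 log2 unit. It is a description of arrays that share groups and scans. That the named genes share a pattern follows from this choice. For Cdh1 they were Grifin (r = 0.97), a galectin-related gene, Hemgn (0.97), a nuclear protein of blood progenitors, Slain1 (0.95), a microtubule regulator, Olfml2b (0.94) and Ctsw (0.94), a cathepsin of cytotoxic lymphocytes. Grifin was 8.92 in Id2 KO, against 7.28 in Batf3 KO and 7.28 in WT Zbtb46-GFP+ cells, so it too was high in one group alone. For Dab2 they were Cpne2 (0.97), Fcrla (0.96), Actn1 (0.95), Gpr4 (0.94) and Crip2 (0.94). Fcrla, a relative of Fc receptors, was 9.14 in Id2 KO, 6.90 in Batf3 KO and 8.80 in WT Zbtb46-GFP+ cells, the same order as Dab2.

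For Mctp2 the most alike were Zdhhc15 (0.98), a palmitoyltransferase, Pdzd4 (0.96), Zfp658 (0.95), Tom1 (0.95), an endosomal sorting protein, and Ly6d (0.94). For Prss34 the closest was Cpa3 (0.93), the granule carboxypeptidase of mast cells and basophils, and the next, Gda (0.77), Trem3 (0.76), Lilrb4a (0.76) and F5 (0.75), were further off. Cpa3 was 7.09 and 5.98 in Id2 KO CDPs and 5.34 and 6.17 in WT CDPs, so it had the same high and low array in these pairs as Prss34. The order was the same in the other groups apart from Id2 KO Zbtb46-GFP+ cells. There Cpa3 was 6.80 and 6.84 on the arrays where Prss34 was 10.34 and 9.97. For probe set 10582545 the closest gene, Cdk5rap1, reached 0.80, and the other 4, Padi4, Slamf6, A530040E14Rik and Etv5, lay between 0.76 and 0.80. Its high and low arrays thus had no close match among the 1566 genes. Among the 5 themselves r ran from 0.28 for Dab2 with Mctp2 to 0.81 for Cdh1 with Dab2.

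**Figure D5:**
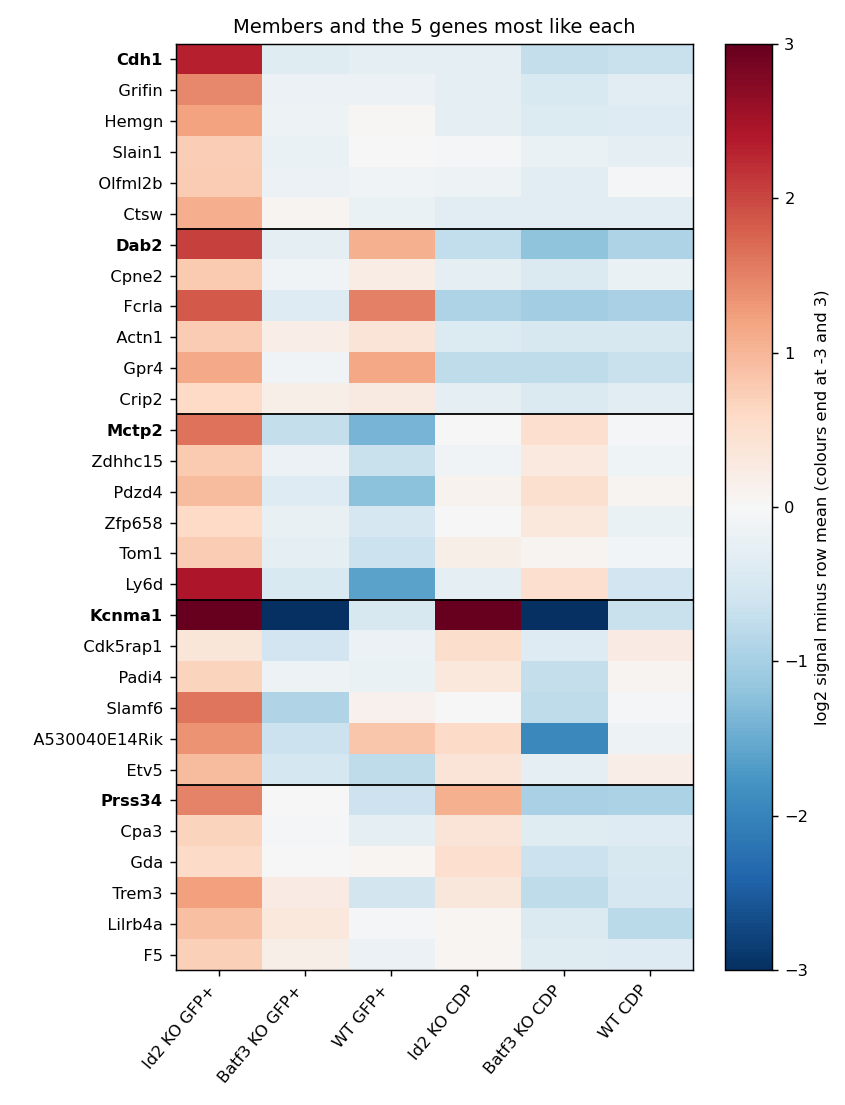
Group mean log2 signal, minus the mean over the 6 groups, of each of the 5 genes (bold) and the 5 genes most like it, in Id2 KO, Batf3 KO and WT Zbtb46-GFP+ cells and CDPs. The genes most like Cdh1 are high in Id2 KO Zbtb46-GFP+ cells alone, and those most like Dab2 also in WT Zbtb46-GFP+ cells. Of the latter, Actn1 and Crip2 are nearly as high in Batf3 KO (7.73 and 6.97) as in WT Zbtb46-GFP+ cells (7.92 and 7.08). Those most like Mctp2 are low in WT Zbtb46-GFP+ cells. All these genes were chosen by likeness on the same arrays, which fixes that they share the pattern of their member.

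The nearest measured gene on each side of each of the 5 was taken in the RefSeq gene order, 10 genes in all. Of these 10, 0 passed the limma test in Id2 KO against WT Zbtb46-GFP+ cells, with 1, Ptger4, at an unadjusted p under 0.05. Beside Cdh1 on chromosome 8, the P-cadherin gene Cdh3 was 5.57 in Id2 KO and 5.598 in WT, and Tango6 differed by -0.01. Beside Dab2 on chromosome 15, the prostaglandin receptor gene Ptger4 was 9.92 in Id2 KO and 9.06 in WT (log2 difference 0.86, adjusted p = 0.0825), and the complement gene C9 differed by -0.05. Beside Mctp2 on chromosome 7, Rgma and B130024G19Rik differed by 0.01 and -0.01. Beside Kcnma1 on chromosome 14, Gm10248 and Dlg5 differed by -0.17 and -0.18. Beside Prss34 on chromosome 17, the protease gene Prss28 differed by -0.15 and Baiap3 by 0.04.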

How the data were processed

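Expression was measured on Affymetrix arrays of sorted mouse bone marrow cells. The deposited values are intensity on a linear scale, RMA signal per probe set made with Affymetrix Expression Console per the submitters' processing notes, which give no versions or settings; the genome build is not given in the sources used here. log2 was taken of the deposited values, with no offset. Of 28853 probe sets, 21789 had a single symbol, 1621 had several and 5443 were unnamed here; 1 probe set per gene was kept. Comparisons used limma 3.58.1 in R 4.3.3 on 12 arrays (6 group means, 6 residual degrees of freedom, two-sided, 9 comparisons), with Benjamini-Hochberg adjustment over all genes. The number of arrays limits the precision. The members, the 17 lists, the use of 12 arrays and the alternatives were chosen with earlier results of these data known. Named genes are the members, the targeted and label marker genes, up to 4 called genes per list with the largest change in Id2 KO against WT Zbtb46-GFP+ cells, basophil markers, the 5 most alike genes and the nearest neighbours. Fanca, Dbndd1 and Xist were named after their values were seen.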

Additional observations from a re-analysis of the deposited data

Results flagged for a closer look

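Mctp2 was singled out because its change over the stage step had opposite directions in 2 genotypes. The Zbtb46-GFP+ minus CDP difference was 1.61 log2 units in Id2 KO and -1.33 in WT, with both Zbtb46-GFP+ arrays above both CDP arrays in Id2 KO and below them in WT. On all 15 arrays, where the replicate 1 arrays of lower median signal enter the later stage only, the differences were 0.17 in Id2 KO and -2.51 in WT. Since Mctp2 was chosen for its level in Id2 KO Zbtb46-GFP+ cells, the difference between the steps was not tested.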

How the results depend on the processing

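The 12 arrays, 2 per group, limit every value, and the call of Dab2 over the WT step was the 1 call among the 30 tests of the 5 genes. It was lost in the fit on all 15 arrays (1.03, adjusted p = 0.767) and with the other Dab2 probe set (0.09, adjusted p = 0.854). Counts of called genes are given below in the order Id2 KO minus WT in CDPs (5), Batf3 KO minus WT in CDPs (10), Batf3 KO minus WT in Zbtb46-GFP+ cells (67), the WT step (2212), the Batf3 KO step (1432), the interaction of Batf3 KO with stage (19), Zbtb46-GFP+ cells of Id2 KO minus WT (361) and of Id2 KO minus Batf3 KO (118), and the Id2 KO step (1359). On all 15 arrays limma called 0, 0, 0, 1, 0, 0, 0, 0 and 0, with 4, 4, 11, 214, 131, 3, 36, 12 and 123 at an unadjusted p under 0.05. With a term for the 3 arrays, 0 (176 unadjusted), 5, 29, 8 and 207 were called in the first, the second, the third, the sixth and the seventh. Quantile normalization gave 118, 2352, 669, 251 and 2372 in the third, the fifth, the seventh, the eighth and the ninth, and centring on the 75th percentile gave 12 in the sixth. After the data were seen, the other probe sets and 2 more settings were added. Without X and Y genes 0 (116 unadjusted) and 5 were called in the first and the second. A block for the array set with the higher 75th percentile gave 26, 250, 4829, 3487, 42, 1212, 506 and 3234 from the second to the ninth. With it Dab2 passed in Batf3 KO minus WT Zbtb46-GFP+ cells (adjusted p = 0.0307) and in the Batf3 KO step (0.0294), and Mctp2 in the WT step (0.0040) and the Batf3 KO step (0.0084). With each array left out in turn the counts ran over 4 to 5, 7 to 12, 33 to 96, 1183 to 2331, 642 to 1548, 7 to 41, 120 to 357, 36 to 152 and 488 to 1506.

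Residuals of same-numbered arrays correlated at 0.53 to 0.68 between CDP groups and at 0.48 between Id2 KO and Batf3 KO Zbtb46-GFP+ cells, but at -0.42 and -0.55 between those and WT Zbtb46-GFP+ cells. Same-numbered arrays thus did not deviate together in every pair, and the labels tie the numbers to no shared animal or day, so the numbers were not taken as a pairing. The replicate block gave 555 called genes in Id2 KO minus WT Zbtb46-GFP+ cells and moved none of the other 8 counts by over 1.5 times. It turned Prss34 in the WT step to -0.27 and in the Id2 KO step to -0.17, and Kcnma1 in the Batf3 KO step to 0.0901.

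Direction changed as follows, with no call in any. With the other probe set, Dab2 differed by -0.0088 and 0.0188 in Id2 KO and Batf3 KO minus WT CDPs, by -0.12 and -0.086 in Id2 KO minus WT and minus Batf3 KO Zbtb46-GFP+ cells, and by -0.0252 in the Id2 KO step. Kcnma1 differed by 0.0135 and 0.0621 in Batf3 KO minus WT CDPs and Zbtb46-GFP+ cells, by 0.15 in the Batf3 KO step, by 0.0485 in the interaction, and by -0.10 and -0.17 in Id2 KO minus WT and minus Batf3 KO Zbtb46-GFP+ cells, and by -0.17 in the Id2 KO step. On all 15 arrays the WT step was -0.45 for Cdh1, -1.53 for Kcnma1 and -0.23 for Prss34, the Batf3 KO step was -0.45 for Cdh1, the Id2 KO step was -1.22 for Kcnma1 and -0.84 for Prss34, and the interaction was -0.12 for Mctp2 and 0.83 for Kcnma1. The Id2 KO step kept its direction but moved to 1.87 for Dab2, 1.04 for Cdh1 (2.11 with a term for the 3 arrays) and 0.17 for Mctp2. With the term for the 3 arrays the interaction was again -0.12 and 0.83, and Kcnma1 differed by -0.30 in the WT step and 0.53 in the Batf3 KO step. Quantile normalization gave 0.0046 for Cdh1 in the interaction. With single arrays left out, Mctp2 ran over -0.53 to 0.69 in Id2 KO minus WT CDPs. Batf3 KO minus WT CDPs ran over -0.15 to 0.0428 for Cdh1, -0.0335 to 1.19 for Mctp2, -5.57 to 0.15 for Kcnma1 and -1.03 to 0.97 for Prss34. Batf3 KO minus WT Zbtb46-GFP+ cells ran over -0.22 to 0.0545 for Cdh1, -0.0793 to 1.44 for Mctp2 and -0.33 to 1.58 for Prss34. The WT step ran over -2.66 to 3.05 for Kcnma1 and -0.62 to 1.29 for Prss34, and the Batf3 KO step over -0.24 to 0.0547 and -0.0128 to 1.99. The interaction ran over -0.17 to 0.11 for Cdh1, -0.66 to 0.86 for Mctp2, -3.14 to 2.57 for Kcnma1 and -0.35 to 1.65 for Prss34. The Id2 KO step of Kcnma1 and Prss34 ran over -0.07 to 0.36 and -0.54 to 1.40. The causes were not tested.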
